A study of Mus musculus with 12 samples.

Results

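The genes described here are 30 listed genes of cholesterol and fatty acid synthesis, measured by RNA sequencing in mouse bone-marrow-derived dendritic cells. They were chosen by name for their roles in the pathway: 6 measured enzymes of the mevalonate pathway, 11 of the steps from squalene to sterol, 4 genes that control the pathway or carry sterol, 4 genes of fatty acid synthesis and elongation, and 4 desaturases. The count table has no row for Hmgcs1 under its symbol or identifier, so this gene is not analysed here. The other 29 are among 37991 genes of the table, and all 29 passed the filter on low counts that left 18981 genes for testing.

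The study compared 4 groups of 3 libraries: Vav1/2/3-/- cells (KO) with curdlan for 3 hours, KO cells left unstimulated, wild-type cells (WT) with curdlan for 3 hours, and WT cells left unstimulated, all of strain C57BL/6. Curdlan is a particulate beta-glucan that activates the receptor Dectin-1, and Vav proteins are guanine nucleotide exchange factors that act in such receptor signalling. The labels give curdlan at 200 mg/ml, a unit that could not be checked. They do not say whether replicates came from separate animals or cultures, so p-values measure only the spread between these libraries.

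Acetyl-CoA is the shared starting material of both routes. In the mevalonate pathway it is built into isoprenoid units, which are joined to squalene and then closed and trimmed to cholesterol. In the other route, acetyl-CoA carboxylase and fatty acid synthase build saturated fatty acids, which elongases extend and desaturases provide with double bonds. The transcription factors SREBP-1 and SREBP-2 drive many of these genes. When sterols are scarce, Scap escorts the SREBPs to the Golgi for cleavage, and when sterols are plentiful, Insig proteins hold Scap in the endoplasmic reticulum. Myeloid cells adjust both routes when they are activated, and sterols that build up can also act through the LXR receptors.

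Library totals ranged from 41421718 to 61217861 counts, and each group was sequenced on a lane of its own, so lane and group cannot be told apart. Over all tested genes the first principal component held 67.0% of the variance and separated KO from WT. The labels did not show as low Vav counts. Vav1 counted 246 to 330 CPM (counts divided by the scaled library size) in KO curdlan libraries and 198 to 232 CPM in KO unstimulated libraries, against 177 to 179 and 131 to 135 CPM in the matching WT libraries. Vav2 counted 265 to 325 and 276 to 287 CPM in KO libraries with and without curdlan, against 66.0 to 72.7 and 65.0 to 70.8 CPM in WT. Vav3 counted 22.7 to 32.5 and 31.5 to 40.0 CPM in KO, against 28.3 to 36.9 and 21.6 to 28.9 CPM in WT. Counts over a whole gene can include transcripts of a disrupted allele and check nothing about a deletion, so KO below means the libraries labelled KO, and every direction between genotypes rests on that label.

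Of the KO curdlan libraries, replicate 5 stood apart in the genes described here. It was the lowest of its group in 27 of 29 genes, and the summed level of the 29 genes was 1921 CPM in it, against 2607 CPM in replicate 2 and 2552 CPM in replicate 4. Of the KO unstimulated libraries, replicate 2 was the highest of its group in 25 of 29 genes. Counts of calls that rest on these libraries are given with and without them, and the values of single genes without KO curdlan replicate 5 where they lost their call and in a range for the others. Unstimulated KO libraries summed to 2224, 2528 and 2255 CPM. WT libraries summed to 4005, 4105 and 4259 CPM with curdlan and to 3369, 3744 and 3824 CPM without it, so each KO library was below each WT library in its summed level. The 4 desaturases hold much of this gap, with 231 to 437 CPM in KO and 1159 to 1432 CPM in WT. With both states pooled, the sums of every other role overlapped between genotypes. For the 4 genes of control and sterol carriage they were 545 to 732 CPM in KO and 558 to 768 CPM in WT. Within each state the mevalonate sums did not overlap, at 303 to 414 CPM in KO and 425 to 468 CPM in WT with curdlan. Without curdlan they were 293 to 350 CPM in KO and 407 to 437 CPM in WT. Sums from squalene to sterol did not overlap within a state either, at 527 to 789 and 900 to 987 CPM with curdlan. Without it they were 518 to 647 and 725 to 762 CPM. Those of fatty acid synthesis overlapped without curdlan but not with it, at 316 to 427 and 537 to 658 CPM.

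The cultures also differed in markers of other cells, and the part of these differences in the results below was not tested. Beside the counts of marker genes, 24.7% of all tested genes were higher and 26.8% lower in KO with curdlan. Without curdlan these shares were 21.1% and 23.3%, all at the threshold given below. Summed macrophage markers ranged from 16769 to 20174 CPM in KO curdlan and from 16258 to 20535 CPM in KO unstimulated libraries, against 13268 to 14492 and 13564 to 14382 CPM in the matching WT libraries, with 6 of 9 and 7 of 9 genes higher in KO. Neutrophil markers summed to between 6054 and 9493 CPM and between 6529 and 10252 CPM in KO, against 3926 to 4604 and 4589 to 5831 CPM in WT, with 8 of 9 genes higher in KO in each state. Cell cycle genes summed to between 655 and 700 CPM and between 753 and 842 CPM in KO, against 1044 to 1134 and 1090 to 1272 CPM in WT, with 7 of 8 and 8 of 8 lower in KO. Mast cell and basophil markers summed to between 126 and 199 CPM over the KO libraries of both states, against 34.5 to 38.7 CPM over the WT libraries. Of 9 conventional dendritic cell markers, 3 were higher and 4 lower in KO with curdlan, and 3 higher and 3 lower without it, and their summed level was 2846 to 4168 CPM over the KO libraries, against 2607 to 2981 CPM over the WT libraries. B cell markers were near 0 in KO, with a summed level of at most 1.07 CPM, against 40.1 to 53.1 CPM in WT. Adipocyte and stromal markers summed to between 11.1 and 21.9 CPM in KO and between 9.73 and 12.1 CPM in WT. Of the 6 tested, 3 were higher and 1 lower in KO in each state. The adipocyte genes Adipoq, Plin1 and Cfd did not pass the filter on low counts, and Plin1 had no count in any KO library. In bulk RNA, fewer cells that express a gene and less of its RNA per cell cannot be told apart.

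The promoters of these genes often carry short motifs bound by factors that work beside SREBPs, and 3 are printed because their genes behaved differently in the results below: Mvk was lower in KO, Hsd17b7 was higher with curdlan in both genotypes, and Fads2 was among the genes that differed most between genotypes. Each is the 250 bases before the RefSeq gene start (GRCm38.p6), written along the gene's own strand. Mvk lies on the plus strand at chr5:114444019-114444268, Hsd17b7 on the minus strand at chr1:169969206-169969455, and Fads2 on the minus strand at chr19:10101504-10101753. Capitals mark CCAAT (the box bound by NF-Y) and CACGTG (an E-box), on either strand.
Mvk: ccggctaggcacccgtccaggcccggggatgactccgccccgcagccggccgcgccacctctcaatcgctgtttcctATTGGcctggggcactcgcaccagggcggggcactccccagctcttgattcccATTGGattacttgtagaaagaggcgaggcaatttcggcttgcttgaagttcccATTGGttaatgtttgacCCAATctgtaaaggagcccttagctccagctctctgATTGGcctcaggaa
Hsd17b7: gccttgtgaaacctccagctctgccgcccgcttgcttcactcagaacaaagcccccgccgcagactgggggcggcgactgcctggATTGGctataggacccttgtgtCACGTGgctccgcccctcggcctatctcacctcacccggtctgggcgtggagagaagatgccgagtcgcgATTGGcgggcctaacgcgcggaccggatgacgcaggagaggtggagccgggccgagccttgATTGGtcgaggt
Fads2: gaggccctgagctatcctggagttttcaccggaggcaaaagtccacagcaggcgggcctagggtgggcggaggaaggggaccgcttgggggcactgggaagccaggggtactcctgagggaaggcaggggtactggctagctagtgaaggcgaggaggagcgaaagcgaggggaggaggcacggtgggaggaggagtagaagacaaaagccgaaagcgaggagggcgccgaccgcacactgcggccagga

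RefSeq promoters were found for 22 of the 29 genes, in 26 promoter entries. CCAAT was in 16 of the 26 entries, and 33.8% of all 32851 promoters of this length held it. CACGTG was in 5 of the 26, with 6.02% over all promoters, and TCACNCCAC, the core of a sterol regulatory element, was in 0 of the 26, with 1.05% over all promoters. All motifs were searched on both strands, and a match or its absence describes only these letters in this window. The Mvk window held CCAAT on its plus strand 1 time and on its minus strand 4 times, the Hsd17b7 window held 3 CCAAT boxes and 1 E-box, and the Fads2 window held neither motif.

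The comparison of KO with WT cells under curdlan asks how the loss of Vav proteins bears on the stimulated state. Of the 29 genes, 22 were lower in KO, 1 was higher and 6 did not pass the test (edgeR quasi-likelihood test, Benjamini-Hochberg adjusted p under 0.05 over all 18981 genes). Over all tested genes 26.8% were lower and 24.7% higher in this comparison, 51.4% in all. The 22 genes also had no overlap between their KO and WT libraries. Over all tested genes 29.5% were lower in KO without overlap, whether they passed the test or not. The median log2 fold change was -0.54 over the 29 genes and 0.01 over all tested genes. In unstimulated cells 18 of the 29 were lower in KO, 2 were higher and 9 did not pass, where 23.3% of all genes were lower and 21.1% higher, 44.4% in all. Those 18 had no overlap either, nor had Msmo1 and Stard4, which were lower in KO but did not pass. Over all tested genes 29.8% were lower without overlap, whether they passed or not. The median there was -0.50 over the 29 genes and -0.01 over all tested genes. The comparisons use different libraries, and 17 genes were lower in KO in both. How many of all tested genes were lower in both was not counted, so this number has no background. Without KO curdlan replicate 5, 17 genes were lower and 2 higher with curdlan, where 25% and 22% of all genes were. In the same fit 20 were lower and 3 higher in unstimulated cells, where 21.9% and 23.4% of all genes were. The genes lower in both fits with curdlan kept log2 fold changes from -3.64 (Scd1) to -0.39 (Fdps) without that library, with -2.51 for Fads2, -2.12 for Scd2, -1.07 for Nsdhl, -0.99 for Lss, -0.96 for Acaca and -0.64 for Mvk. Without KO unstimulated replicate 2, 19 genes were lower and 1 higher in unstimulated cells, where 20.3% and 18.7% of all genes were.

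**Figure D1:**
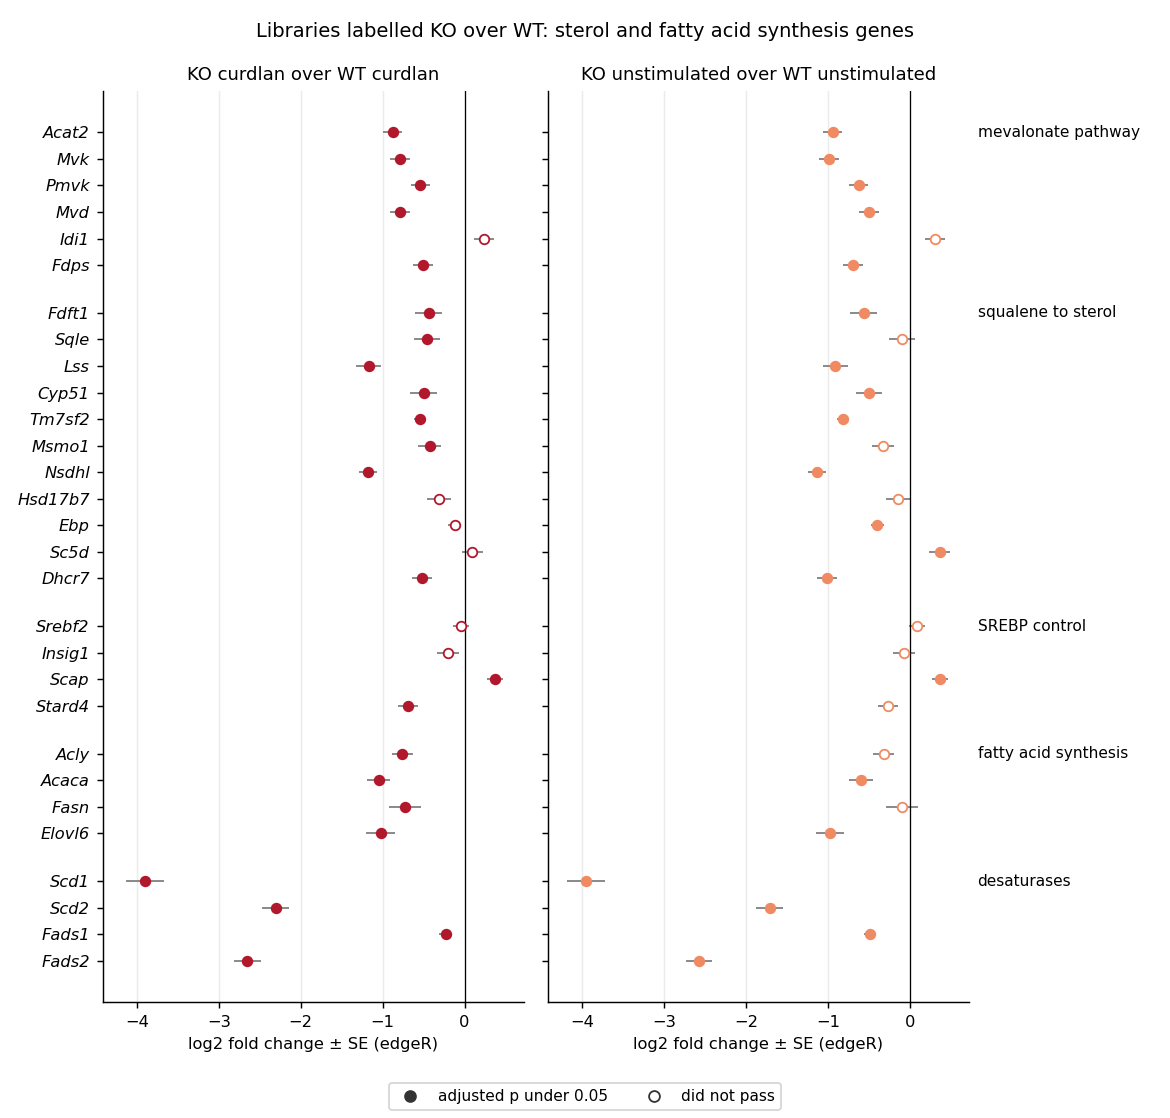
Log2 fold change of KO over WT for the 29 measured genes, with curdlan on the left and unstimulated on the right. Points are edgeR estimates, bars are ± 1 SE, and filled points have an adjusted p under 0.05; most points lie left of 0, with Scd1, Fads2 and Scd2 farthest, while Scap and, in unstimulated cells, Sc5d are filled points right of 0.

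Of the 29 genes, 3 of the 4 desaturases had the largest fold changes between the genotypes in both states. Stearoyl-CoA desaturases put the double bond into stearate and palmitate, and their genes Scd1 (chr19:44394455-44407879, minus strand) and Scd2 (chr19:44293674-44306864, plus strand) lie in the same cluster, with coordinates and exons here from GENCODE M21, GRCm38. Scd1 counted 11.3, 14.4 and 6.56 CPM in KO curdlan libraries, against 157, 160 and 163 CPM in WT curdlan libraries. Its levels in unstimulated libraries were 10.7, 14.2 and 9.74 CPM in KO, against 156, 182 and 198 CPM in WT. All 6 KO libraries were far below all 6 WT libraries, and curdlan libraries overlapped with unstimulated ones. The log2 fold change of Scd1 was -3.90 ± 0.23 with curdlan (SE, adjusted p = 1.68e-07) and -3.95 ± 0.23 without it (adjusted p = 1.18e-07).

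Scd2, the desaturase with the highest level, counted 239, 280 and 164 CPM in KO curdlan libraries, against 1111, 1154 and 1111 CPM in WT curdlan libraries. Unstimulated libraries had 275, 347 and 299 CPM of Scd2 in KO, against 882, 1033 and 1101 CPM in WT. The genotypes did not overlap in either state. The log2 fold change of Scd2 was -2.31 ± 0.17 with curdlan (adjusted p = 7.55e-07) and -1.71 ± 0.16 without it (adjusted p = 5.64e-06). Scd genes are close paralogs, and reads shared between them could have been split by the authors' counting.

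Fads1 and Fads2 encode the delta-5 and delta-6 desaturases of polyunsaturated fatty acids and are neighbours on chromosome 19, at chr19:10182888-10196877 on the plus strand and chr19:10062765-10101746 on the minus strand. Fads2, whose promoter is printed above, counted 6.95, 6.06 and 4.59 CPM in KO curdlan libraries, against 33.0, 37.2 and 40.8 CPM in WT curdlan libraries. In unstimulated libraries it counted 6.42, 7.97 and 6.85 CPM in KO, against 34.4, 45.8 and 46.2 CPM in WT. KO and WT libraries of Fads2 did not overlap, and the log2 fold changes were -2.65 ± 0.16 with curdlan (adjusted p = 2.03e-07) and -2.58 ± 0.16 without it (adjusted p = 1.73e-07). Its neighbour Fads1 differed less, with a log2 fold change of -0.23 ± 0.08 with curdlan (adjusted p = 0.0224) and -0.49 ± 0.08 without it (adjusted p = 0.00023). The curdlan call of Fads1 was lost without KO curdlan replicate 5 (adjusted p = 0.0757), and also without WT curdlan replicate 1 or 2 (adjusted p = 0.0821 and 0.0585).

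**Figure D2:**
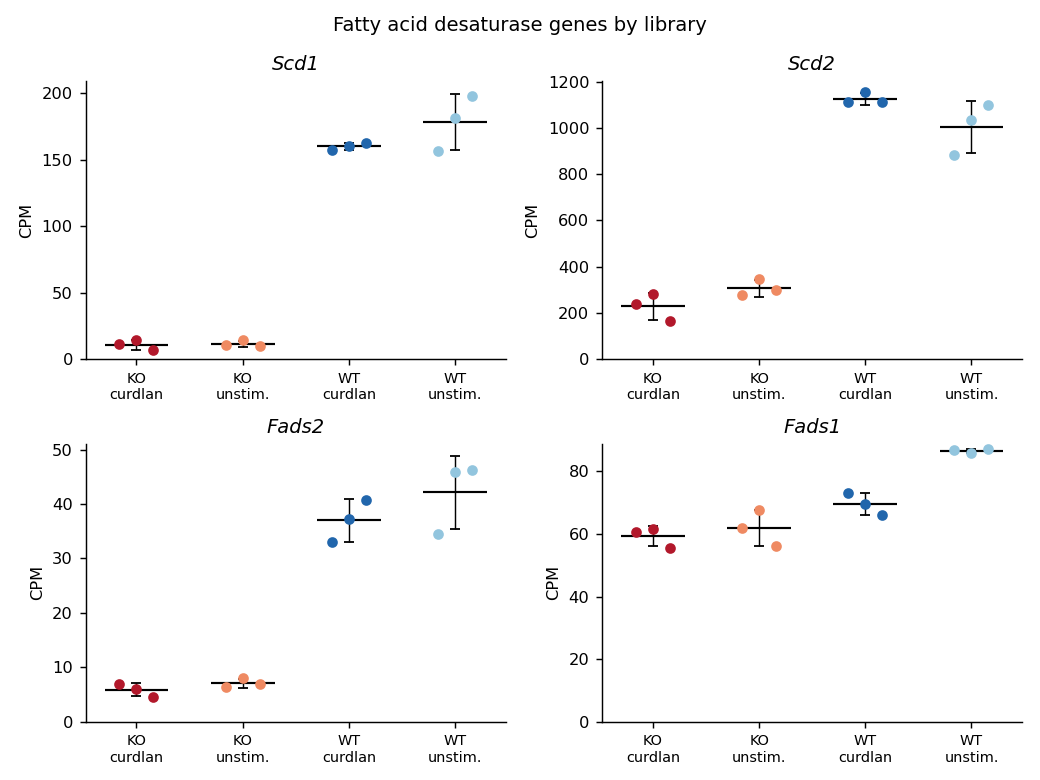
Level in CPM of the 4 desaturase genes, with 1 point per library and the mean ± SD of 3 libraries as bars, on linear axes from 0. Scd1, Scd2 and Fads2 are low in all KO libraries, and Fads1 differs less, with KO at 55.6 to 67.6 CPM and WT at 66.0 to 87.1 CPM.

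Of the 4 genes of fatty acid synthesis, 4 were lower in KO with curdlan and 2 without it. Acaca, which encodes acetyl-CoA carboxylase, counted 46.2, 38.7 and 34.2 CPM in KO curdlan libraries, against 69.0, 86.9 and 90.7 CPM in WT curdlan libraries. The log2 fold change was -1.05 ± 0.15 with curdlan (adjusted p = 9.03e-05) and -0.59 ± 0.14 in unstimulated cells (adjusted p = 0.00496), where KO libraries had 52.2, 48.2 and 48.4 CPM and WT libraries 59.8, 85.5 and 79.1 CPM. Elovl6, an elongase of saturated fatty acids, counted 8.11, 7.80 and 5.80 CPM in KO curdlan libraries, against 12.8, 16.3 and 15.1 CPM in WT curdlan libraries. Without curdlan it counted 10.1, 12.8 and 8.07 CPM in KO, against 17.3, 21.4 and 22.3 CPM in WT, and its log2 fold changes were -1.02 ± 0.18 and -0.98 ± 0.17 with and without curdlan (adjusted p = 0.000453 and 0.000562). Groups of both genes did not overlap. Acly, which makes cytosolic acetyl-CoA from citrate, and Fasn, the fatty acid synthase, passed with curdlan at log2 fold changes of -0.76 ± 0.13 and -0.72 ± 0.19 (adjusted p = 0.000393 and 0.0074). Without curdlan Acly had -0.32 ± 0.13 (adjusted p = 0.0596) and Fasn -0.09 ± 0.19 (adjusted p = 0.729), neither past the threshold.

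In the mevalonate pathway 5 of 6 genes were lower in KO in each state. Mvk (mevalonate kinase) counted 12.9, 14.5 and 9.59 CPM in KO curdlan libraries, against 22.2, 20.9 and 20.7 CPM in WT curdlan libraries. Unstimulated libraries had 12.8, 14.4 and 11.9 CPM of Mvk in KO, against 26.4, 26.5 and 24.8 CPM in WT. Every KO library was below every WT library, with log2 fold changes of -0.79 ± 0.12 with curdlan (adjusted p = 0.00023) and -0.99 ± 0.12 without it (adjusted p = 4.07e-05). Acat2, a cytosolic thiolase that opens the route, counted 18.0, 23.3 and 16.8 CPM in KO curdlan libraries, against 38.4, 35.2 and 33.1 CPM in WT curdlan libraries. Its unstimulated levels were 19.99, 22.6 and 19.7 CPM in KO, against 42.3, 38.8 and 38.5 CPM in WT. These groups did not overlap, and the log2 fold changes of Acat2 were -0.88 ± 0.11 and -0.94 ± 0.11 with and without curdlan (adjusted p = 5.31e-05 and 3.02e-05).

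Mvd, the decarboxylase of the pathway, had 64.4, 76.5 and 50.6 CPM in KO curdlan libraries, against 112, 109 and 109 CPM in WT curdlan libraries, a log2 fold change of -0.79 ± 0.12 (adjusted p = 0.000151). In unstimulated libraries it had 89.3, 89.2 and 80.7 CPM in KO, against 130, 116 and 120 CPM in WT, a log2 fold change of -0.50 ± 0.12 (adjusted p = 0.00393). Pmvk, the phosphomevalonate kinase, and Fdps, which joins isoprenoid units into farnesyl diphosphate, had log2 fold changes from -0.69 to -0.51 in the 2 states, all past the threshold. Of the exon bases of Fdps, 26.7% overlap a predicted gene on the same strand. Idi1, the isopentenyl diphosphate isomerase, went the other way without passing, with a log2 fold change of 0.24 ± 0.12 with curdlan (adjusted p = 0.115) and 0.30 ± 0.12 without it (adjusted p = 0.0572). It passed as higher in KO under some alternatives, among them the fit without KO curdlan replicate 5 (adjusted p = 0.0456 with curdlan and 0.0271 without it).

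Of 11 genes from squalene to sterol, 8 were lower in KO with curdlan and none was higher, and 7 were lower and 1 higher without it. Nsdhl, which removes methyl groups from sterol precursors, counted 16.6, 13.0 and 11.6 CPM in KO curdlan libraries, against 30.5, 30.6 and 32.6 CPM in WT curdlan libraries. Without curdlan it counted 17.8, 18.4 and 16.003 CPM in KO, against 37.5, 37.7 and 39.5 CPM in WT. Every KO library was below every WT library, and the log2 fold changes of Nsdhl were -1.18 ± 0.11 with curdlan (adjusted p = 4.73e-06) and -1.14 ± 0.11 without it (adjusted p = 5.42e-06). Lss, lanosterol synthase, counted 32.9, 27.98 and 19.5 CPM in KO curdlan libraries, against 60.2, 58.3 and 62.8 CPM in WT curdlan libraries. In unstimulated libraries Lss counted 28.7, 36.6 and 28.1 CPM in KO, against 59.0, 58.7 and 57.6 CPM in WT. The groups did not overlap, with log2 fold changes of -1.17 ± 0.15 with curdlan (adjusted p = 5.86e-05) and -0.91 ± 0.15 without it (adjusted p = 0.000389).

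Dhcr7, which encodes a reductase of the last steps to cholesterol, counted 18.0, 19.0 and 14.3 CPM in KO curdlan libraries, against 26.5, 25.0 and 22.0 CPM in WT curdlan libraries. Its unstimulated levels were 20.1, 20.3 and 15.6 CPM in KO, against 39.1, 37.3 and 36.6 CPM in WT. The groups did not overlap, and the log2 fold changes were -0.52 ± 0.12 with curdlan (adjusted p = 0.0036) and -1.01 ± 0.12 without it (adjusted p = 3.02e-05). Tm7sf2, a sterol reductase and per exon length 1 of the lowest of the 29 genes, counted 5.61, 5.61 and 5.72 CPM in KO curdlan libraries and 6.26, 5.80 and 5.77 CPM in KO unstimulated libraries. In WT it counted 8.55, 7.69 and 8.45 CPM with curdlan and 10.3, 10.7 and 10.5 CPM without it, and the genotypes did not overlap. Its log2 fold changes were -0.54 ± 0.08 and -0.82 ± 0.08 with and without curdlan (adjusted p = 0.000106 and 3.98e-06), and 12.1% of its exon bases overlap Vps51.

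The other enzymes from squalene to sterol showed smaller differences. Fdft1 (squalene synthase), Sqle (squalene epoxidase), Cyp51 (lanosterol demethylase) and Msmo1 (methylsterol monooxygenase) were lower in KO with curdlan, at log2 fold changes from -0.50 to -0.43, and all 4 calls were lost without KO curdlan replicate 5 (adjusted p = 0.131, 0.0631, 0.0661 and 0.0535). Leaving out WT curdlan replicate 4 also ended all 4 (adjusted p from 0.0583 to 0.0902), and the Fdft1 call was lost without any of the WT curdlan libraries, without KO curdlan replicate 2 and without WT unstimulated replicate 2 or 4 (adjusted p from 0.0505 to 0.0956), and the Sqle call without WT curdlan replicate 2 (adjusted p = 0.0647). In unstimulated cells Fdft1 and Cyp51 passed, at -0.56 ± 0.16 and -0.50 ± 0.16 (adjusted p = 0.0133 and 0.0254), while Sqle at -0.09 ± 0.16 (adjusted p = 0.666) and Msmo1 at -0.33 ± 0.14 (adjusted p = 0.0693) did not. These unstimulated calls were lost without KO unstimulated replicate 1 (adjusted p = 0.0641 for Fdft1 and 0.111 for Cyp51), and that of Cyp51 also without KO unstimulated replicate 5 or any WT unstimulated library (adjusted p from 0.0507 to 0.0751). Of the exon bases of Fdft1, 18.3% overlap Ctsb on the opposite strand, and the kit does not mark strand. Ebp, the sterol isomerase, passed as lower in unstimulated cells, at -0.40 ± 0.08 (adjusted p = 0.00126), and had -0.12 ± 0.08 with curdlan (adjusted p = 0.224). Sc5d, the sterol C5-desaturase, was higher in KO in unstimulated cells, at 0.36 ± 0.13 (adjusted p = 0.0347), a call lost when a KO or WT unstimulated library other than KO replicate 1 was left out (adjusted p from 0.0533 to 0.119) and when only library size was scaled for (adjusted p = 0.261). Hsd17b7, a keto-reductase of the demethylation steps, did not pass in either state, but passed as lower with curdlan without KO curdlan replicate 2 (adjusted p = 0.0206).

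**Figure D3:**
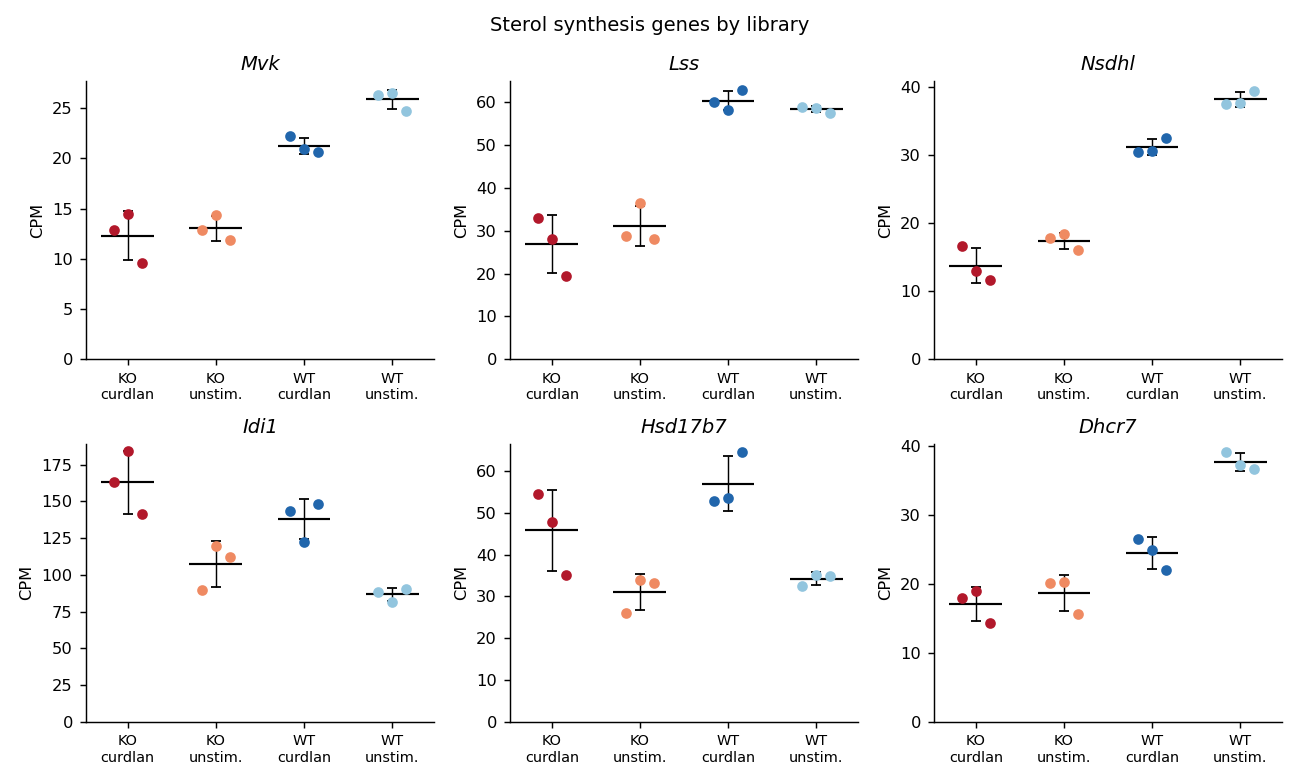
Level in CPM of 6 sterol synthesis genes, with 1 point per library and the mean ± SD of 3 libraries as bars, on linear axes from 0. Mvk, Lss, Nsdhl and Dhcr7 are lower in KO, while Idi1 and Hsd17b7 are higher with curdlan than without it in both genotypes.

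Of the 4 genes that control the pathway or carry sterol, 1 was lower and 1 higher in KO with curdlan, and none was lower and 1 higher without it. Srebf2, which encodes SREBP-2, counted 386, 358 and 308 CPM in KO curdlan libraries, against 334, 357 and 391 CPM in WT curdlan libraries. In unstimulated libraries it counted 292, 334 and 287 CPM in KO, against 271, 301 and 287 CPM in WT. Genotypes overlapped in both states, with log2 fold changes of -0.04 ± 0.10 and 0.09 ± 0.10 with and without curdlan (adjusted p = 0.746 and 0.492). Insig1, the sterol-sensing anchor of Scap, counted 206, 171 and 132 CPM in KO curdlan libraries, against 196, 189 and 200 CPM in WT curdlan libraries. It did not pass in any comparison of the main fit, which scales by TMM and has no block. Under single alternatives Insig1 passed. It was lower in KO with curdlan when only library size was scaled for (log2 fold change -0.45, adjusted p = 0.0143) and without KO curdlan replicate 2 (adjusted p = 0.0227). It was higher with curdlan in KO without KO curdlan replicate 5 (adjusted p = 0.04). In WT it was higher with curdlan without KO curdlan replicate 2 or 5, among other alternatives (adjusted p = 0.0482 and 0.0229). Scap was higher in KO, with 43.5, 41.7 and 34.8 CPM in KO curdlan libraries, against 30.2, 31.6 and 31.1 CPM in WT curdlan libraries. Its log2 fold change was 0.37 ± 0.10 in each state (adjusted p = 0.0072 with curdlan and 0.00863 without it), and scaling by library size alone ended both calls (adjusted p = 0.315 and 0.14). Of the exon bases of Scap, 13.2% overlap 5830462I19Rik on the opposite strand, and the kit does not mark strand. Stard4, a cytosolic sterol carrier, was lower in KO with curdlan, at -0.69 ± 0.12 (adjusted p = 0.000545), and had -0.27 ± 0.12 without it (adjusted p = 0.095).

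The authors' deposited table of KO against WT with curdlan calls 21 of the 29 genes lower and 1 higher at an adjusted p under 0.05. That is the same call as here for 28 genes, with Fads1 as the exception (adjusted p = 0.0595 in the authors' deposited table).

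Compared per kilobase of exon over all libraries, the order of the 29 genes also differed between genotypes. Scd2 led in WT curdlan libraries at 203 to 211 CPM per kb, far above Acly, the next, at 61.4 to 69.5 CPM per kb. It led in WT unstimulated libraries too, at 161 to 201 CPM per kb. In KO curdlan libraries Insig1 led at 42.8 to 66.6 CPM per kb, and Srebf2, Idi1 and Scd2 followed within overlapping ranges of 42.9 to 53.7, 40.4 to 52.5 and 30.04 to 51.3 CPM per kb. In KO unstimulated libraries Scd2 at 50.4 to 63.5 and Acly at 48.7 to 60.6 CPM per kb overlapped at the top.

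Related genes outside the 29 were counted by list. The KO and WT counts of every list below stand beside 24.7% of all tested genes higher and 26.8% lower in KO with curdlan. Without curdlan these shares were 21.1% and 23.3%. Lists with counts near these shares do not stand out from all genes. Of 13 further genes of fatty acid synthesis, 7 were lower and 1 higher in KO in each state, with a median log2 fold change of -0.48 with curdlan and -0.49 without it. Among them were 2 more stearoyl-CoA desaturases, Scd3 at -2.57 ± 0.21 with curdlan (adjusted p = 1.51e-06) and Scd4 at -1.37 ± 0.17 (adjusted p = 3.83e-05). Acss2, which makes acetyl-CoA from acetate, counted 8.07, 7.85 and 10.0 CPM in KO curdlan libraries, against 29.0, 29.9 and 28.1 CPM in WT curdlan libraries, a log2 fold change of -1.74 ± 0.13 (adjusted p = 8.89e-07). Me1, the malic enzyme that supplies NADPH, had -0.85 ± 0.14 (adjusted p = 0.000271). Of 11 further genes of sterol synthesis 5 were lower and none higher in KO in each state, led by Cyb5r3, an electron donor of sterol demethylation, at -1.09 ± 0.07 with curdlan (adjusted p = 2.61e-07).

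Of 11 further genes that control SREBPs, 2 were higher and 6 lower in KO with curdlan, and 2 higher and 4 lower without it. Of 11 genes of sterol uptake and storage, 2 were higher and 5 lower with curdlan, and 3 higher and 2 lower without it, with Scarb1, a lipoprotein receptor, at a log2 fold change of -1.15 with curdlan. Of 15 genes of fatty acid elongation and activation, 3 were higher and 3 lower with curdlan, and 2 higher and 6 lower without it.

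Of 13 genes of fatty acid oxidation, the opposite route, 10 were lower and none higher in KO with curdlan, and 8 were lower and none higher without it. Cpt2, a mitochondrial carnitine transferase, had a log2 fold change of -0.77 ± 0.08 with curdlan (adjusted p = 7.56e-06). Of 10 genes tested that belong to the LXR and oxysterol list, 4 were higher and 1 lower in KO with curdlan, and 7 higher and 1 lower without it. Apoe, which carries lipid out of cells, averaged 1459 ± 63.5 CPM in KO curdlan and 1637 ± 244 CPM in KO unstimulated libraries, against 13.8 ± 1.51 and 13.8 ± 3.17 CPM in the matching WT libraries (SD, n = 3 each). Ch25h, which makes 25-hydroxycholesterol, was higher in KO at a log2 fold change of 2.07 ± 0.28 with curdlan (adjusted p = 7.44e-05). Without KO curdlan replicate 5, the counts with curdlan were 1 higher and 7 lower for fatty acid synthesis, 0 and 5 for sterol synthesis, 2 and 6 for SREBP control, 3 and 4 for uptake and storage, 2 and 3 for elongation and activation, 5 and 1 for the LXR and oxysterol list, and 0 and 9 for fatty acid oxidation.

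The curdlan comparison within each genotype asks how the 3 hours of stimulation changed these genes. A few of the 29 passed, and Idi1, Hsd17b7 and Cyp51 of sterol synthesis were higher with curdlan in both genotypes. In KO cells 3 genes were higher with curdlan, 4 were lower and 22 did not pass, where 14% of all tested genes were higher and 14.6% lower, 28.6% in all. In WT cells 6 were higher, 3 lower and 20 did not pass, where 11.4% of all genes were higher and 8.4% lower, 19.8% in all. The counts in KO are near their backgrounds. In WT the higher count is above its background and the lower count near it, a difference that was not tested. The median log2 fold changes were -0.07 in KO and 0.05 in WT. Without KO curdlan replicate 5, the count in KO was 9 higher and 2 lower, where 10.9% of all genes were higher and 12.8% lower, so 1 library decides that count. Without KO unstimulated replicate 2 it was 3 higher and 2 lower, where 11.7% and 12.6% were.

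Idi1 counted 163, 184 and 142 CPM in KO curdlan libraries, against 89.6, 120 and 112 CPM in KO unstimulated libraries. In WT it counted 143, 122 and 149 CPM with curdlan, against 88.1, 81.4 and 90.4 CPM without it. Curdlan libraries were above unstimulated ones in both genotypes, with log2 fold changes of 0.61 ± 0.12 in KO (adjusted p = 0.00303, and 0.69 without KO curdlan replicate 5) and 0.67 ± 0.12 in WT (adjusted p = 0.00206). Hsd17b7 counted 54.4, 47.8 and 35.2 CPM in KO curdlan libraries, against 26.1, 33.8 and 33.1 CPM in KO unstimulated libraries. In WT it counted 53.0, 53.5 and 64.6 CPM with curdlan, against 32.4, 35.2 and 34.9 CPM without it. Its groups did not overlap, though KO curdlan replicate 5 was just above the unstimulated range, and the log2 fold changes were 0.56 ± 0.15 in KO (adjusted p = 0.0133) and 0.74 ± 0.15 in WT (adjusted p = 0.00376). Cyp51 had log2 fold changes of 0.53 ± 0.16 in KO (adjusted p = 0.0286) and 0.54 ± 0.16 in WT (adjusted p = 0.0364), and its KO libraries overlapped, with 150, 178 and 105 CPM with curdlan against 82.6, 118 and 98.9 CPM without it. Leaving out KO unstimulated replicate 1 ended the KO calls of Cyp51 and Hsd17b7 (adjusted p = 0.127 and 0.0687), leaving out KO curdlan replicate 2 or 4 or KO unstimulated replicate 5 that of Cyp51 (adjusted p from 0.0601 to 0.135), and leaving out any WT library ended the WT call of Cyp51 (adjusted p from 0.0616 to 0.13).

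In WT cells Sqle, Sc5d and Srebf2 also passed as higher with curdlan, and Dhcr7, Tm7sf2 and Fads1 as lower. Sqle, at 183, 201 and 217 CPM with curdlan against 117, 137 and 138 CPM without it, had a log2 fold change of 0.62 ± 0.16 (adjusted p = 0.0161). Sc5d had 0.52 ± 0.13 (adjusted p = 0.0127) and Srebf2 0.33 ± 0.10 (adjusted p = 0.0296). Dhcr7 fell by 0.62 on the log2 scale (SE 0.12, adjusted p = 0.0032), to the levels given above, Tm7sf2 by 0.35 (SE 0.07, adjusted p = 0.00584) and Fads1 by 0.32 (SE 0.08, adjusted p = 0.0107). Leaving out WT curdlan replicate 4 ended the calls of Sqle, Sc5d, Srebf2 and Fads1 (adjusted p = 0.0715, 0.0574, 0.134 and 0.0569). The Sqle call was also lost without WT unstimulated replicate 1 (adjusted p = 0.0727), that of Sc5d without WT unstimulated replicate 2 (adjusted p = 0.0575), and that of Srebf2 without WT curdlan replicate 2 or any WT unstimulated library (adjusted p from 0.0558 to 0.111).

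In KO cells Mvd, Nsdhl, Acly and Elovl6 passed as lower with curdlan. Mvd fell by 0.44 (SE 0.12, adjusted p = 0.0151) on the log2 scale, Acly by 0.46 (SE 0.13, adjusted p = 0.0182), Nsdhl by 0.33 (SE 0.11, adjusted p = 0.0399) and Elovl6 by 0.51 (SE 0.18, adjusted p = 0.0495). Acly counted 243, 180 and 202 CPM in KO curdlan libraries, against 320, 257 and 284 CPM in KO unstimulated libraries, without overlap. All 4 calls were lost without KO unstimulated replicate 1 (adjusted p from 0.0588 to 0.116), and that of Acly without KO curdlan replicate 4 (adjusted p = 0.0732). Those of Nsdhl and Elovl6 were lost without any of 10 of the 12 libraries, all but KO curdlan replicate 2 and KO unstimulated replicate 5 (adjusted p from 0.0509 to 0.185).

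**Figure D4:**
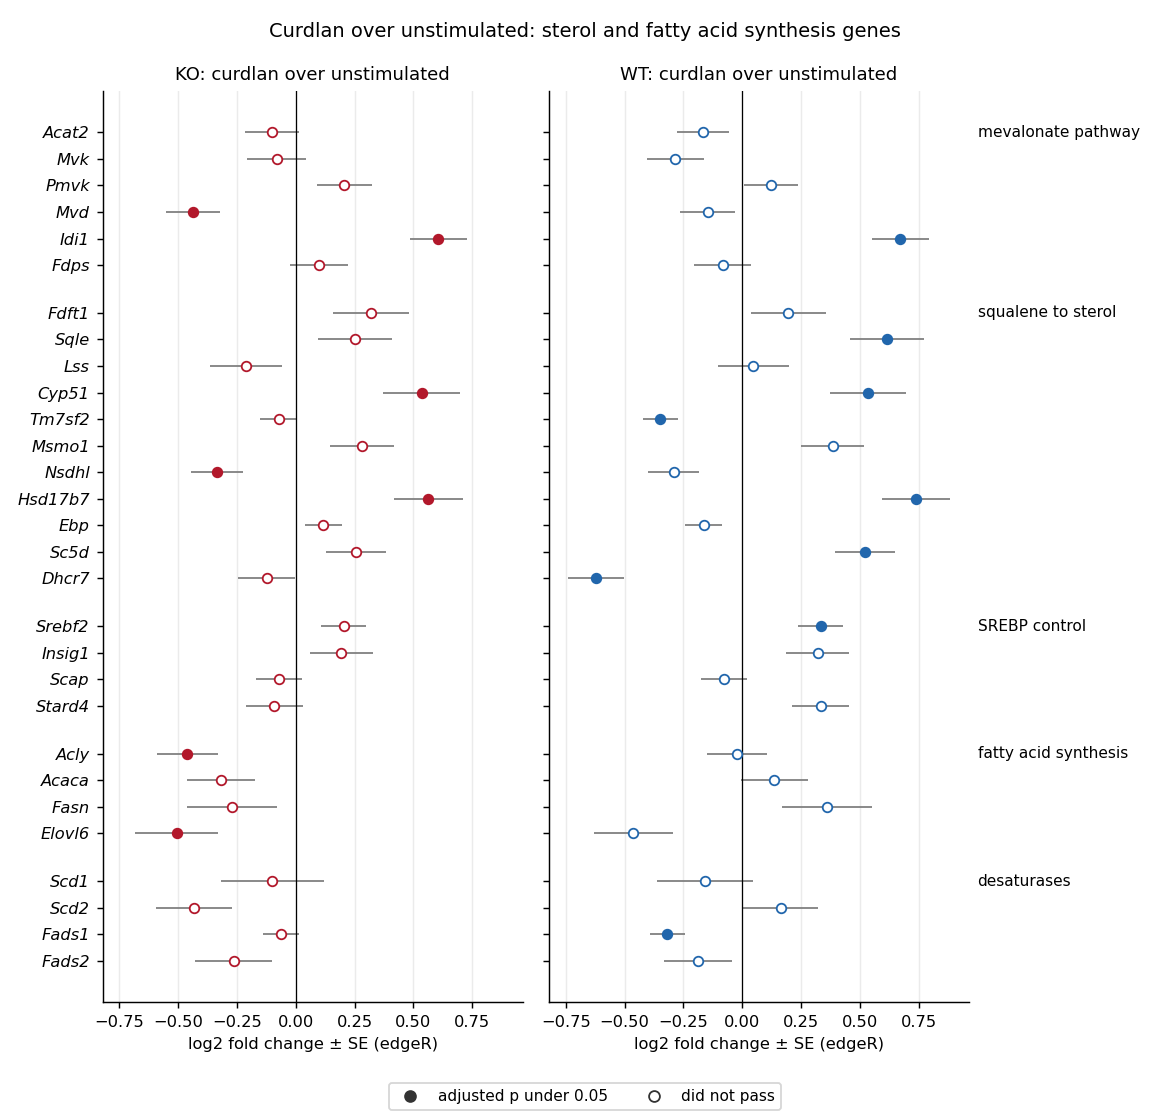
Log2 fold change of curdlan over unstimulated libraries for the 29 measured genes, in KO on the left and WT on the right, on a shared axis. Points are edgeR estimates, bars are ± 1 SE, and filled points have an adjusted p under 0.05: 7 in KO and 9 in WT, with Idi1, Hsd17b7 and Cyp51 right of 0 in both.

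The difference between the curdlan responses was tested directly. By the fit without a block none of the 29 genes passed, where 5.21% of all tested genes did, 1.61% with a higher and 3.6% with a lower response in KO. At an unadjusted p under 0.05 there were 9 (Tm7sf2, Ebp, Dhcr7, Stard4, Acly, Acaca, Fasn, Scd2 and Fads1), the smallest adjusted p was 0.0987 for Dhcr7, and DESeq2 also called none. A call in 1 genotype alone is therefore not shown to differ between them by this fit. Replicate numbers in the library names were taken to pair the curdlan and unstimulated libraries of a genotype, by the check described with the processing. The pairs were numbers 1, 2 and 4 in WT and 2 and 5 in KO. With the replicate block, 10 genes had a lower response in KO and 1 a higher one, where 8.49% of all tested genes were lower and 5.58% higher.

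The genes called with the block came from every role. Scd2 had pair differences (log2 CPM, curdlan minus unstimulated) of -0.54 and -0.87 in KO, against 0.33, 0.16 and 0.01 in WT, and its response differed by -0.87 ± 0.12 (adjusted p = 0.000547). Stard4 had -0.09 and -0.46 in KO, against 0.44, 0.32 and 0.25 in WT, a difference of -0.61 ± 0.11 (adjusted p = 0.00366). Mvd had -0.47 and -0.67 in KO, against -0.21, -0.09 and -0.14 in WT, a difference of -0.43 ± 0.09 (adjusted p = 0.00947). In all 3 genes each KO pair was below each WT pair. Sqle, Lss, Cyp51, Msmo1, Sc5d, Acaca and Fasn also had lower responses in KO, with differences from -0.63 to -0.31 (adjusted p from 0.015 to 0.0463).

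Dhcr7 was the gene with a higher value in KO, with pair differences of -0.17 and -0.13 in KO, against -0.56, -0.58 and -0.73 in WT, a difference of 0.47 ± 0.10 (adjusted p = 0.00871). In most of the genes with a lower KO response, the pair numbered 5, which holds the KO curdlan library that stands apart, was well below the other. With that library left out of the blocked fit, Scd2, Stard4 and Mvd remained (adjusted p = 0.00423, 0.0191 and 0.0488) and the count was 3 lower and none higher, where 4.6% of all tested genes were lower and 1.31% higher. That fit has 1 KO pair, which is assumed to vary like the WT pairs. Without KO curdlan replicate 2 in its place, 14 were lower and 1 higher, where 11.5% and 7.82% of all genes were.

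**Figure D5:**
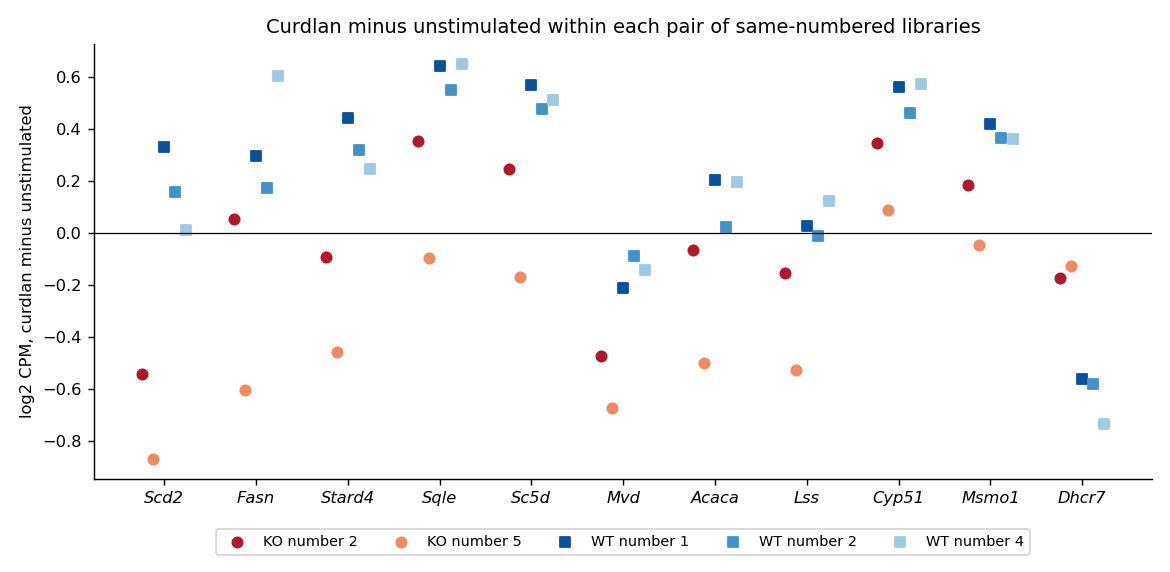
Curdlan minus unstimulated level (log2 CPM) within each pair of same-numbered libraries, for the 11 genes whose response differed between genotypes with the replicate block. Circles are the 2 KO pairs and squares the 3 WT pairs; the KO pairs lie below the WT pairs except for Dhcr7, where they lie above, and for most genes KO number 5 is the lowest.

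The block also changed the calls within each genotype. KO curdlan replicate 4 and KO unstimulated replicate 1 have no partner of the same number. The blocked KO values therefore rest on the pairs numbered 2 and 5, a change of libraries as well as of model. In KO cells 3 genes were then higher and 11 lower with curdlan, where 14.4% and 15.2% of all genes were, and Scd2 and Scd1 were among the lower ones, at -0.70 ± 0.09 (adjusted p = 8.74e-05) and -0.43 ± 0.10 (adjusted p = 0.00595). The Scd1 value was -0.10 without the block (adjusted p = 0.776), and its blocked call was lost without KO curdlan replicate 5 (-0.34, adjusted p = 0.0834). Without KO curdlan replicate 5 the blocked count in KO was 5 higher and 4 lower, where 8.72% and 8.51% of all genes were, and without replicate 2 it was 1 higher and 12 lower, where 12.5% and 13.4% were. In WT cells 11 were higher and 8 lower, where 18.6% and 19.8% of all genes were. Those newly called in WT were Fdft1, Msmo1, Insig1, Stard4 and Fasn, which were higher, and Acat2, Mvk, Nsdhl, Ebp and Elovl6, which were lower.

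Among 84 related genes tested, the response difference passed without a block for 8, or 9.52%, beside the 5.21% of all tested genes: Abca1, which exports cholesterol, at -0.97 ± 0.21 (adjusted p = 0.0241), Acsl1, Faf2, Insig2, Osbp, Ppard and Oxsm, which were also lower, and Hsd17b12, which was higher. Abca1 counted 514, 447 and 597 CPM in KO curdlan libraries, against 511, 346 and 518 CPM in KO unstimulated libraries, which overlap. In WT it counted 413, 458 and 451 CPM with curdlan, against 174, 214 and 208 CPM without it, which do not. Without KO curdlan replicate 5 the count was 5 lower and 1 higher, where 3.97% and 0.929% of all genes were, and the calls of Ppard and Oxsm were lost (adjusted p = 0.0552 and 0.0593). Insig2, the partner of Insig1 in holding Scap, differed by -0.45 ± 0.11 (adjusted p = 0.0406).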

How the data were processed

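The authors deposited whole-number read counts per gene and library from an unstranded kit (TruSeq RNA v2, per the labels' protocols). FastQC 0.11.1, TopHat2 2.4.2a, SAMtools 1.2, featureCounts 1.4.6 and DESeq2 1.8.2 are named in the submitters' processing notes, which state no role for them. The build and annotation behind the counts were not given in the sources used here. Further tables that the authors deposited hold log2 fold changes and p-values of KO against WT with curdlan, per the file headers; a further table named an interaction was not used for values, and 18 columns of normalized values were not used.

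From the counts, genes passing filterByExpr were scaled by TMM and tested with edgeR 4.0.16 (limma 3.58.1, R 4.3.3; quasi-likelihood, two-sided), in 1 fit of 12 libraries with 4 group means; SE is the absolute log2 fold change over the square root of F. CPM are on effective library sizes, logs with a prior count of 2. Replicates differed by more than counting noise, and none were merged. The members, lists and alternatives were chosen with earlier results of these data known. Full values by library go to members past the threshold without overlap, up to 10 a comparison by size, and up to 4 genes are named per other list; further members given by library, to show how they vary, were chosen after their values were seen. The method was tested on simulated data. Motifs were searched in RefSeq promoters.

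Pairing was checked by correlating deviations from group means. Same-numbered libraries gave 0.395, 0.239 and 0.129 in WT and 0.287 and 0.557 in KO. Libraries of unlike number gave -0.290 to 0.0822 in WT and -0.470 to 0.246 in KO. Same-numbered values were above these within each genotype, though 0.246, from KO curdlan 4 with KO unstimulated 2, came near 0.287. The numbers were therefore taken to pair states within a genotype, which remains an assumption. Numbers did not pair genotypes (-0.151 to 0.0822). For WT curdlan the authors' comparison table gives these numbers to other columns than the count table, which was followed.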

Additional observations from a re-analysis of the deposited data

How the results depend on the processing

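The lower calls in KO were the firmest: 17 of 22 with curdlan and 16 of 18 without it passed in all 20 alternatives, the higher ones in none. Within a genotype, 2 of 6 higher and 2 of 3 lower calls in WT, and 1 of 3 and 0 of 4 in KO, passed in all. Of 133 named gene results, 2523 fits kept their side of the threshold, 190 missed it and 0 turned direction. These results were chosen because they passed in the main fit, so this says little about other genes. Scaling by library size alone moved the median of all genes by -0.25 and -0.18 (KO over WT, with and without curdlan) and by -0.20 and -0.13 (curdlan in KO and WT), and left 23.7%, 26.4%, 17.9% and 25.1% of calls higher, against 48.0%, 47.5%, 49.0% and 57.6%. It gave 0 higher of the 29 in KO over WT in each state, where 2459 and 2551 of all 18981 genes were higher with and without curdlan. With curdlan it gave 1 higher and 10 lower in KO, where 1326 and 6073 of all genes were, and 7 lower in WT, where 4589 were. Upper quartile factors gave 1 higher in unstimulated KO over WT, where 3659 of all genes were. They gave 5 lower with curdlan in WT, where 2275 of all genes were, and 46.3% of all WT curdlan calls higher. With only the 2 groups compared, curdlan gave 1 higher and 0 lower in KO and 10 higher and 6 lower in WT. The replicate block gave 11 lower in KO, 11 higher and 8 lower in WT, and 1 higher and 10 lower for the response difference; across genotypes, where the numbers do not pair, it gave 1 higher and 20 lower with curdlan and 3 and 17 without. With the block and chosen after seeing the data, leaving out KO curdlan replicate 5 gave 5 higher in KO and 3 lower differences, and leaving out replicate 2 gave 1 higher and 12 lower in KO and 1 higher and 14 lower differences. Leaving out each library gave 1 to 2 higher with curdlan and 1 to 3 without (KO over WT), 1 to 9 higher and 0 to 6 lower with curdlan in KO, 2 to 9 higher and 2 to 5 lower in WT, and 0 to 2 lower response differences, the 2 being Acly and Fasn without KO curdlan replicate 2. For the fits of only 2 groups, the block across genotypes and most left-out libraries, the shares over all tested genes are not given. Changes in those counts therefore cannot be told from changes over all genes. The causes of these changes were not tested. With 3 libraries a group, differences well above the printed errors could miss the threshold, as those of Acly and Msmo1 in unstimulated cells did. A gene without a call is therefore not shown to be equal between groups.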
